A study of Danio rerio with 36 samples.

Results

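Tetrabromobisphenol A (TBBPA) at 0.292 µM was compared with its own carrier control (CC) in whole zebrafish larvae. The comparison used 6 of the 36 RNA-seq libraries of the series: the 3 libraries labelled 0.292 µM and the 3 CC libraries of the TBBPA exposure. The groups and the gene lists were chosen with earlier results of these data known. The larvae were AB/Tub wild type, and each library came from a pool of 20 whole larvae that had been exposed from 72 to 120 hours post fertilization (hpf), or 48 h. CC larvae received the carrier without TBBPA. The carrier was dimethyl sulfoxide by the methods of the study and stands at 0.5% in the labels. The 3 replicates came from different clutches, and replicates with the same number were treated as pairs. The other TBBPA groups, each of 3 libraries under the same schedule, were 2.92 µM, which is 10 times higher, and 0.0292, 0.00292 and 0.000292 µM. Each library averages over 20 larvae and all their tissues, so fewer cells of a type and less RNA per cell cannot be told apart.

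TBBPA is a brominated flame retardant built on the bisphenol A skeleton and is widely used in circuit boards and plastics. It resembles thyroid hormone in shape, and it has been studied as a disruptor of thyroid and estrogen signaling. In the days covered here the larva uses up its yolk and brings the liver, exocrine pancreas and gut into function, and its red blood cells hold embryonic globins. The exocrine pancreas is made of acinar cells that secrete digestive enzymes, and those cells devote a large share of their RNA to a small number of protease, lipase and amylase genes.

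The 3 CC libraries held between 7865327 and 9472172 reads on genes and the 3 libraries at 0.292 µM between 8585235 and 11478099, recovered from the deposited normalized counts. Of 26639 genes, 18400 had a mean of at least 10 and were tested. Markers of skeletal muscle (18 genes tested), neurons (33), photoreceptors (29), skin (16), liver (19), exocrine pancreas (18) and intestine (22) were all measured, as whole larvae would give. On the first principal component the libraries at 2.92 µM lay between -35.9 and -22.9. Those at 0.292 µM lay at 19.0, 9.45 and -0.0847, and those of CC at -1.93, 7.09 and 0.943, so the 0.292 µM and CC libraries overlapped. Replicate 2 at 0.000292 µM stood apart on the second component, at -37.7, where the other 17 libraries lay between -16.7 and 19.4.

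No gene passed at 0.292 µM. A differentially expressed gene (DEG) was defined by a difference of 1.5-fold or more with an adjusted p (Benjamini-Hochberg) below 0.05, and limma called 0 of 18400 genes (0.0%), with a lowest adjusted p of 0.873. At an unadjusted p under 0.05 there were 966 genes (5.25%), 441 higher (2.4%) and 525 lower (2.85%), where 5 in 100 tests reach that level with no difference at all. The quasi-likelihood test of edgeR on the recovered reads also called 0 genes, with 963 at an unadjusted p under 0.05. DESeq2, run on all 26639 genes without the filter, called 0 with 388. Fitted alone, without the other 12 TBBPA libraries, the 6 libraries gave 13 DEGs among the 18400 genes. Of these, 10 were among the 18 exocrine pancreas markers tested, which are described below. Without replicate 3 there was 1 DEG, crp5. The median standard error of a log2 fold change was 0.14, and the median 95% interval reached 0.29 to either side, or 1.23-fold. For 12963 genes (70.5%) this interval lay wholly inside a 1.5-fold change in either direction. A p that misses the threshold does not show that the remaining genes were equal.

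By contrast, limma called 158 DEGs at 2.92 µM against the same CC libraries (0.859% of the genes tested, with 19.8% at an unadjusted p under 0.05), 121 higher (0.658%) and 37 lower (0.201%). Without the replicate block there were 69. Without replicate 3, CC replicate 2 or CC replicate 3 the count was 19, 66 and 66. Without replicate 1 it was 41, and DESeq2 gave 89. The lower concentrations gave 0 DEGs at 0.0292 µM with 934 genes (5.08%) at an unadjusted p under 0.05, 0 at 0.00292 µM with 695 (3.78%), and 5 (0.0272%), all lower, at 0.000292 µM with 1277 (6.94%). The comparisons with CC share the CC libraries, so that a CC library that is high or low moves all of them together.

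With no DEG to name, the 24 genes nearest to a call were taken: the 12 higher and 12 lower genes with the lowest p among those changed at least 1.5-fold and in the same direction in all 3 pairs. These are values that did not pass. They were mostly weakly expressed, with a mean below 50 in 9 of the 12 higher and 9 of the 12 lower genes, against a median mean of 109 over all genes tested. Their unadjusted 95% intervals lay on 1 side of 0 by the way they were chosen. Against the mean of the 3 lower concentrations, which uses no CC library, the interval excluded 0 for fewer. These were 2 of the 12 higher and 8 of the 12 lower genes. That comparison reuses the exposed libraries by which the genes were chosen. Both counts are therefore raised in part by the selection and are not an independent check.

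Of the 12 higher genes, 3 encode chymotrypsins, the acinar proteases that cut proteins after aromatic residues. ctrb.1 read 275, 175 and 80.1 normalized counts in CC replicates 1 to 3, and 544, 508 and 198 at 0.292 µM. Replicate 3 was the lowest library of both groups, and every pair differed in the same direction. The log2 fold change was 1.27 ± 0.32 (SE, n = 3 pairs; adjusted p = 0.873, limma). ctrl read 404, 298 and 167 in CC and 708, 670 and 258 at 0.292 µM, a log2 fold change of 0.86 ± 0.21 with the same adjusted p, 0.873.

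The other higher genes came from several tissues and had few reads. SLC24A5, an ion exchanger of the pigment granule that is needed for dark melanin, read 2.38, 9.49 and 6.24 in CC and 18.8, 16.6 and 13.6 at 0.292 µM. The groups did not overlap, and the log2 fold change of 1.43 ± 0.37 was the highest of the 12. The mean of SLC24A5 was 6.0 in CC, 16.3 at 0.292 µM, and 14.2, 12.2 and 13.1 at 0.000292, 0.00292 and 0.0292 µM. 3 genes belong to the extracellular matrix or bone. P4HA3, a subunit of the enzyme that hydroxylates collagen, read 7.13, 5.69 and 6.24 in CC and 14.1, 19.3 and 11.5 at 0.292 µM. FBLN7, a fibulin, read 17.8, 24.7 and 29.1 against 46.1, 34.1 and 38.6, and bglapl, an osteocalcin-like gene, 16.6, 25.6 and 14.6 against 36.7, 27.6 and 32.3. All 3 were without overlap between the groups. CFTR, the chloride channel of secretory ducts, read 15.5, 25.6 and 14.6 in CC and 26.6, 37.8 and 33.4 at 0.292 µM, also without overlap. Groups failed to overlap for 9 of the 12 higher genes and 12 of the 12 lower genes. Over all genes tested, 4.29% were higher and 4.58% lower without overlap, but these 24 were picked for their differences.

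Among the 12 lower genes were 3 that act in cell division. ASPM, which organizes the poles of the mitotic spindle, read 66.6, 82.5 and 77.0 in CC and 53.9, 35.9 and 57.4 at 0.292 µM. Its log2 fold change was -0.63 ± 0.18 (adjusted p = 0.947, limma). ska1, part of the complex that holds chromosomes to the spindle, read 25, 18 and 19.8 in CC and 11.7, 11.1 and 11.5 at 0.292 µM. CDKN2C, which encodes an inhibitor of cyclin-dependent kinases and so acts against division, read 44.0, 26.6 and 34.3 in CC and 21.1, 21.2 and 20.9 at 0.292 µM. In each of the 3 the highest exposed library lay below the lowest CC library.

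2 of the lower genes are tied to heme or hemoglobin. UROD, an enzyme of heme synthesis, read 34.5, 47.4 and 55.1 in CC and 18, 29.5 and 28.2 at 0.292 µM, a log2 fold change of -0.84 ± 0.23 (adjusted p = 0.947, limma). HBE1 (ENSDARG00000113599), an embryonic beta-type globin, read 893, 529 and 520 in CC and 352, 491 and 392 at 0.292 µM. The pair of replicate 1 differed far more than the other 2. rn7sl1, the RNA of the signal recognition particle, read 171, 115 and 120 in CC and 66.5, 58.9 and 66.8 at 0.292 µM. The exposed level was also close to that of the lower concentrations, with a log2 difference of 0.07 ± 0.25.

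The direction of these 24 genes at 2.92 µM was mixed. All 12 higher genes were also above CC at 2.92 µM, 5 of them at an unadjusted p under 0.05. Of the 12 lower genes, 7 were below CC at 2.92 µM and 5 above it. 0 of the 24 were DEGs at 2.92 µM. In all, 19 of 24 kept their sign, but both sides of that count use the same CC libraries. The 5 that turned were ASPM, ska1, CDKN2C, HBE1 and mfap4.11, a gene of the microfibril-associated protein family. mfap4.11 read 15.5, 16.1 and 17.7 in CC, then 8.60, 6.45 and 7.30 at 0.292 µM, and 22.5, 21.3 and 36.6 at 2.92 µM. The fold change from CC was -1.05 ± 0.31 at 0.292 µM and 0.64 ± 0.31 at 2.92 µM on the log2 scale.

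**Figure D1:**
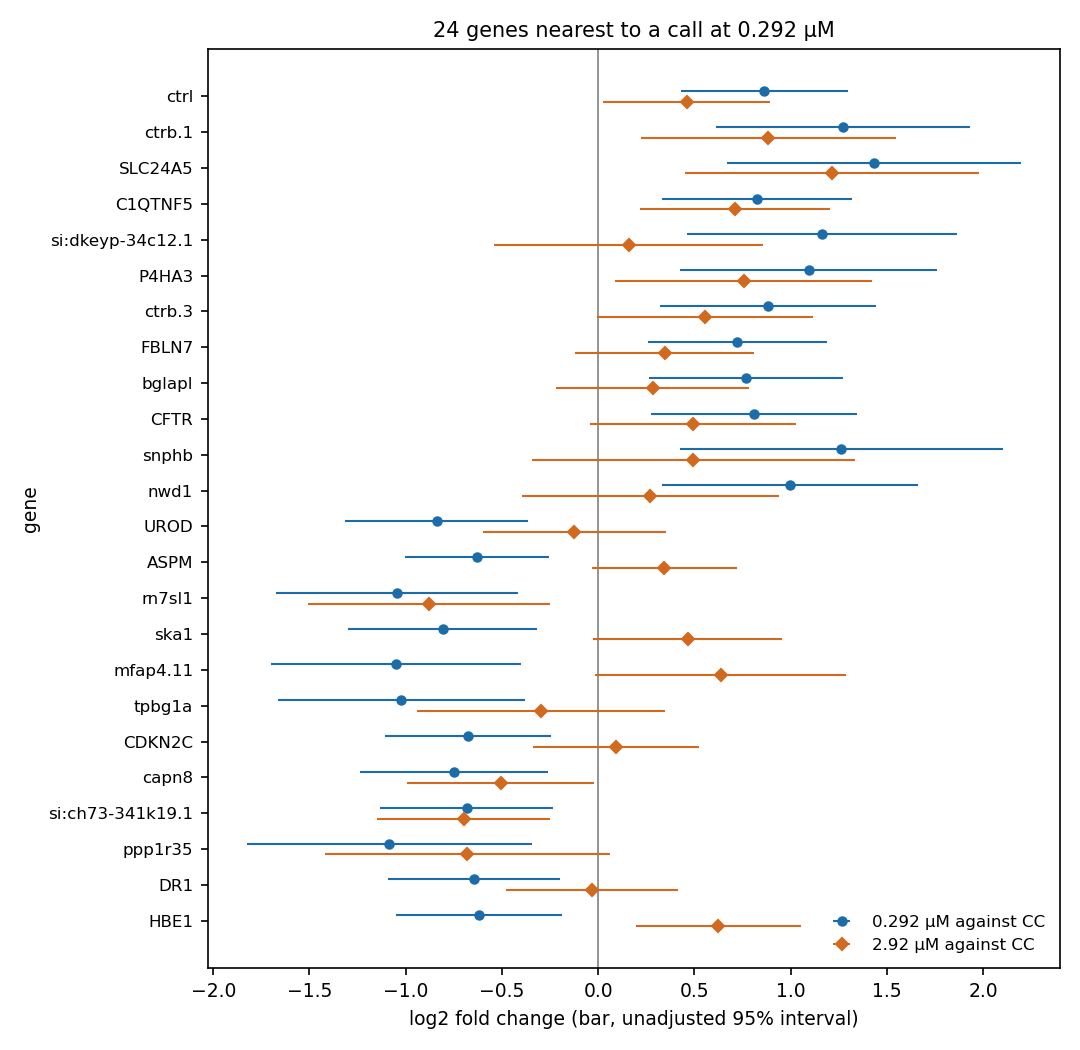
Log2 fold changes of the 24 genes nearest to a call at 0.292 µM (x axis), with 1 gene a row, for 0.292 µM against CC (circles) and 2.92 µM against CC (diamonds). Bars are unadjusted 95% intervals from limma, n = 3 a group. All 12 genes in the upper rows were above 0 at both concentrations, and 5 of the 12 in the lower rows were below 0 at 0.292 µM and above 0 at 2.92 µM.

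The exocrine pancreas list moved most evenly at 0.292 µM. All 18 markers tested had a fitted value above CC, where 49.9% of all genes tested did, and all 18 were above it in each of the 3 pairs, where 13.5% of all genes tested were higher in all 3 pairs. 16 of the 18 were higher at an unadjusted p under 0.05 (2.4% of all genes tested), and 0 were DEGs. Genes of the list tended to rise and fall together between libraries. ctrb.1, ctrl, prss1 and amy2a, for example, were each highest in replicate 2 at 0.000292 µM. The 18 genes are therefore not independent measurements, and the same 3 pairs of pools stand behind all of them. The median log2 fold change was 0.80, against a median of 0.00 over all genes tested, and single genes ranged from 0.28 to 1.27. Within pairs the median difference was 0.69, 0.99 and 0.53 for replicates 1, 2 and 3. Among them were the proteases of the chymotrypsin and elastase families, trypsin, carboxypeptidases, amylase and lipases. prss1, a trypsin and the most abundant of the list, read 1790, 1263 and 937 in CC and 2609, 2407 and 1291 at 0.292 µM, a log2 fold change of 0.65 ± 0.21 (adjusted p = 0.947, limma). amy2a, pancreatic amylase, read 264, 182 and 143 in CC and 461, 393 and 235 at 0.292 µM. For prss1 the exposed replicate 3 lay within the CC range, and the replicates of a group differed as widely as the groups did. 1 of the 18 genes was higher with no overlap between the groups, where 4.29% of all genes tested were.

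**Figure D2:**
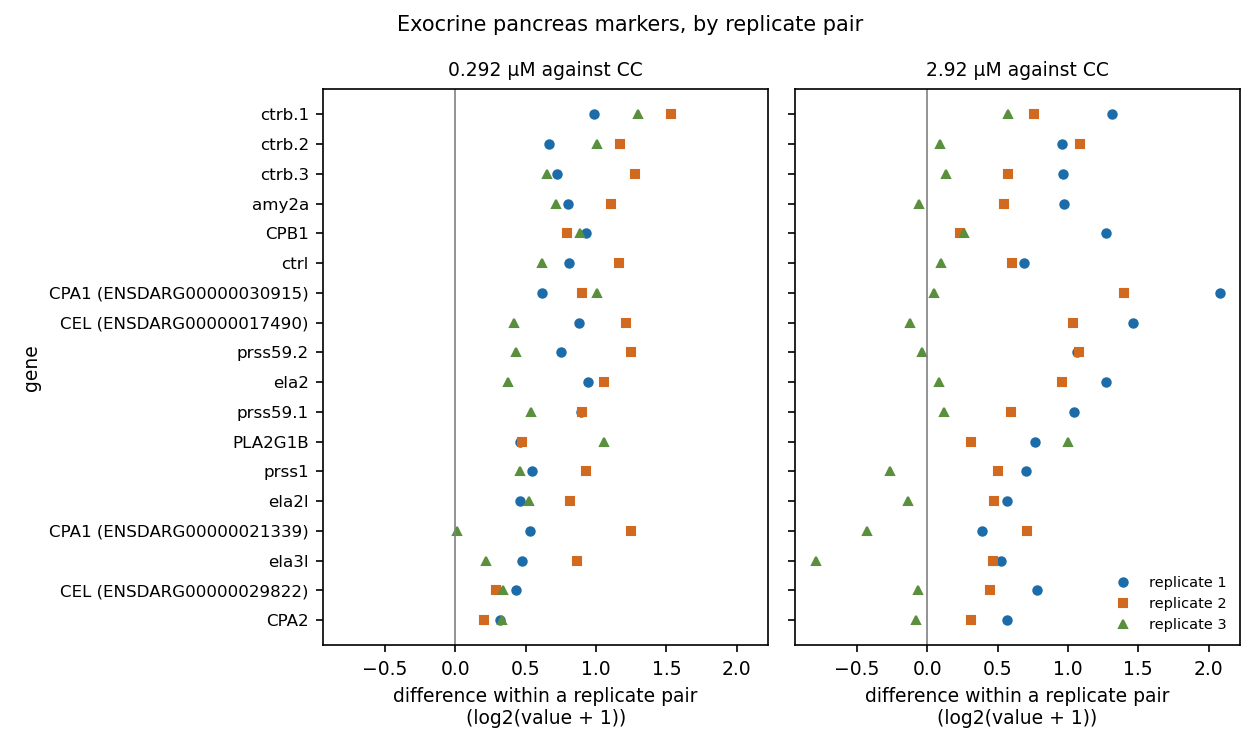
Difference from CC within each replicate pair, on the log2(value + 1) scale (x axis), for the 18 exocrine pancreas markers (rows), at 0.292 µM (left) and 2.92 µM (right). Names given with an identifier stand for 2 genes of the same name. At 0.292 µM every point lies above 0. At 2.92 µM the median of replicate 3 was 0.00, and 9 of its 18 genes were above CC.

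The summed level of the 18 markers was 6764, 4938 and 3556 normalized counts in CC replicates 1 to 3 and 10619, 10036 and 4933 at 0.292 µM. CC had the lowest sum of its replicate number in replicate 2, and in replicates 1 and 3 a single exposed library lay below it, at 5912 for 0.00292 µM and 3204 for 2.92 µM. The highest sum of all, 16493, was that of replicate 2 at 0.000292 µM, the library that stood apart, from the lowest concentration. Against the mean of the 3 lower concentrations the list's log2 fold changes centred on a median of 0.22, and 1 of 18 genes was higher at an unadjusted p under 0.05 (2.56% of all genes tested). At 2.92 µM the median was 0.57, with 8 of 18 genes higher at an unadjusted p under 0.05 (10.5% of all genes tested) and 0 DEGs. Between 2.92 and 0.292 µM 0 of the 18 genes had an unadjusted p under 0.05 (24.4% of all genes tested), and limma called 0 DEGs.

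The fit of the 6 libraries alone called 12 genes higher and 1 lower, of 18400 tested. The 10 pancreas markers, of 18 tested, were ctrb.1, ctrb.2, ctrb.3, ctrl, amy2a, prss1, prss59.1, prss59.2, ela2 and ela2l. The other 2 higher genes were CELA1, an elastase that was not in the list, and APOD, a lipid-binding secreted protein. The gene called lower was rn7sl1. Log2 fold changes in that fit ran from -1.05 to 1.27, the same values as with all 18 libraries, and adjusted p from 0.000309 to 0.0302 (limma). What changed was the estimate of the spread, which no longer held the other TBBPA libraries, replicate 2 at 0.000292 µM among them. With only that library left out, 0 genes were called and the lowest adjusted p was 0.300.

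**Figure D3:**
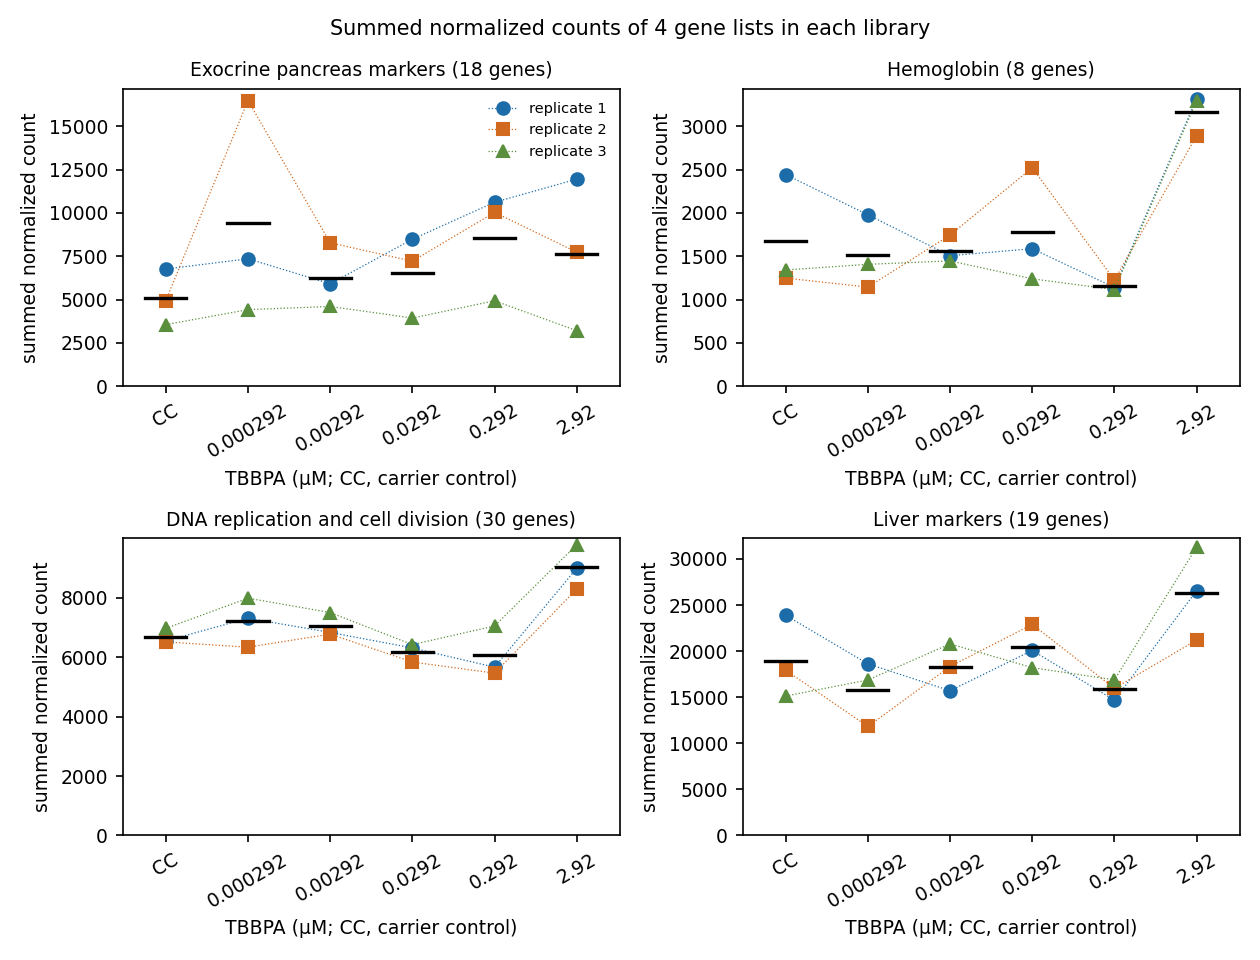
Summed normalized counts (y axis, linear, from 0) of 4 gene lists in each of the 18 TBBPA libraries by concentration (x axis, µM). Symbols are replicates 1 to 3, dotted lines join replicates of the same number, and bars are group means. Exocrine pancreas sums spread widely within groups, while the hemoglobin sums were 1115 to 1225 at 0.292 µM and 2890 to 3320 at 2.92 µM.

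Hemoglobin transcripts had their lowest summed mean at 0.292 µM, where no globin passed the test, and they rose at 2.92 µM. The alpha and beta globin chains carry oxygen in the larval red blood cell. All 8 globin genes tested had a fitted value below CC at 0.292 µM, at a median log2 difference of -0.45, 2 at an unadjusted p under 0.05 (2.85% of all genes tested were lower at that level) and 0 DEGs. 4 of the 8 were lower in all 3 pairs, where 13.9% of all genes tested were. The summed globin level was 2443, 1248 and 1342 in CC and 1139, 1225 and 1115 at 0.292 µM. CC replicate 1 was thus about as far above the other CC libraries as above the exposed ones, and the pairs differed by a median of -1.19, -0.04 and -0.03. Without replicate 1 the median over the list was -0.11, and without CC replicate 1 it was -0.17. Against the mean of the 3 lower concentrations, which uses no CC library, all 8 globins had a fitted value below, with a median of -0.41, 3 of 8 lower at an unadjusted p under 0.05 (2.85% of all genes tested) and 0 DEGs.

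At 2.92 µM the globins rose. The summed level was 3320, 2890 and 3293, above every other TBBPA library. The median log2 fold change against CC was 1.01, and 6 of the 8 genes were DEGs, all higher (0.658% of all genes tested). Against 0.292 µM all 8 were DEGs and higher, with a median of 1.46 and no overlap for any of the 8, where 13.0% of all genes tested were higher without overlap and 1.77% were DEGs and higher. hbae1.3, an embryonic alpha-type globin, read 125, 35.1 and 36.4 in CC, 44.6, 40.5 and 61.5 at 0.292 µM and 251, 143 and 233 at 2.92 µM. The log2 fold change between the concentrations was 2.06 ± 0.36 (adjusted p = 0.0019, limma), the largest of the 8. Reads of these near-identical genes can match more than 1 of them, which can affect the single genes and their sum. How such reads were counted was not tested.

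In the list of red blood cell genes other than globins, 11 were tested, with 0 DEGs and a median log2 fold change of -0.03 at 0.292 µM. At an unadjusted p under 0.05, RHAG was higher (2.4% of all genes tested) and UROD lower (2.85%). slc4a1a, the anion exchanger of the red cell membrane, read 68.9, 53.1 and 56.2 in CC, 37.5, 50.7 and 34.4 at 0.292 µM and 133, 130 and 189 at 2.92 µM. The exposed values at 0.292 µM all lay below the CC values, where 4.58% of all genes tested were lower without overlap. slc4a1a differed by -0.54 ± 0.27 on the log2 scale (adjusted p = 0.956, limma). Between the concentrations it rose by 1.85 ± 0.27 (adjusted p = 0.000586). alas2, the first enzyme of heme synthesis in red cells, read 23.8, 12.3 and 12.5, then 7.82, 12 and 12.5, then 32.8, 26.7 and 39.9, and rose by 1.54 ± 0.41 between the concentrations (adjusted p = 0.0244).

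Genes of DNA replication and cell division mostly had fitted values below CC at 0.292 µM, where none passed the test. At 2.92 µM all 30 had fitted values above CC, and 6 were DEGs (0.658% of all genes tested were DEGs and higher). Of 30 genes tested, 5 had a fitted value above CC at 0.292 µM (49.9% of all genes tested) and 25 below it. 9 were lower at an unadjusted p under 0.05 (2.85% of all genes tested), and 0 higher. The median log2 fold change was -0.17 and 0 genes were DEGs. PCNA, the sliding clamp of DNA polymerase, read 1171, 1154 and 1227 in CC and 951, 936 and 1232 at 0.292 µM, a log2 fold change of -0.20 ± 0.07 (adjusted p = 0.947, limma). TOP2A, which untangles sister chromatids, read 355, 402 and 372 against 296, 272 and 376. TYMS, which makes thymidylate for DNA, read 84.4, 67.4 and 81.1 against 60.2, 51.6 and 67.8. Replicate 3 showed no difference over the list: the median within pairs was -0.19, -0.23 and 0.01.

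Low values were not confined to 0.292 µM. The summed level of the list was 6309, 5834 and 6420 at 0.0292 µM, below all 3 CC libraries, against 5661, 5461 and 7048 at 0.292 µM and 6545, 6512 and 6967 in CC. PCNA averaged 1064 at 0.0292 µM and 1039 at 0.292 µM, and TOP2A 307 and 315 (normalized counts, n = 3 each). Against the mean of the 3 lower concentrations, which includes 0.0292 µM, 10 of 30 genes were lower at an unadjusted p under 0.05 (2.85% of all genes tested), 0 were higher, the median was -0.15, and limma called 0 DEGs. At 2.92 µM all 30 had a fitted value above CC (48.9% of all genes tested), with a median log2 fold change of 0.46, 23 at an unadjusted p under 0.05 (10.5% of all genes tested were higher at that level) and 6 DEGs (0.658%). Between 2.92 and 0.292 µM 15 of the 30 were DEGs and higher (1.77% of all genes tested), and 24 of the 30 were higher without overlap of the groups (13.0% of all genes tested). PCNA read 1679, 1477 and 1726 at 2.92 µM and rose by 0.65 ± 0.07 between the concentrations (adjusted p = 4.4e-05, limma). cdc20, which starts the exit from mitosis, read 77.3, 80.6 and 83.2 in CC, 61.8, 62.6 and 67.8 at 0.292 µM and 128, 132 and 113 at 2.92 µM. It is a DEG at 2.92 µM against CC, and at 0.292 µM its log2 fold change was -0.32 ± 0.12 (adjusted p = 0.947, limma). There it was lower with no overlap, where 4.58% of all genes tested were.

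Liver markers had a median below CC at 0.292 µM that turned with 1 replicate. Of 19 genes of the larval hepatocyte, mostly secreted plasma proteins, 18 had a fitted value below CC at 0.292 µM, at a median log2 difference of -0.31, 0 at an unadjusted p under 0.05 and 0 DEGs. Their summed level was 23887, 17925 and 15129 in CC and 14674, 15954 and 16886 at 0.292 µM, so the groups overlapped. The median within pairs was -0.97, -0.06 and 0.23, and without replicate 1 the list's median turned to 0.074. Against the mean of the 3 lower concentrations, without any CC library, 18 of 19 again had a fitted value below, with a median of -0.26, 0 at an unadjusted p under 0.05 and 0 DEGs. fabp10a, the liver fatty acid binding protein, read 5503, 3965 and 3164 in CC and 3414, 2838 and 3838 at 0.292 µM. At 2.92 µM it read 5026, 4935 and 5710.

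Between 2.92 and 0.292 µM 11 of the 19 liver genes were DEGs and higher, with a median log2 fold change of 0.81, where 1.77% of all genes tested were. tfa, which encodes transferrin, the iron carrier of plasma, read 3048, 1986 and 1402 in CC, 1408, 1648 and 1883 at 0.292 µM and 5452, 3173 and 6857 at 2.92 µM. It was the only liver marker of the list to be a DEG at 2.92 µM against CC, where 0.658% of all genes tested were DEGs and higher.

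Acute phase and complement genes, which the liver also makes in inflammation, gave 4 of 31 lower at an unadjusted p under 0.05 (2.85% of all genes tested) and 0 higher at 0.292 µM, a median log2 fold change of -0.05 and 0 DEGs. 3 of the 4 were C-reactive protein genes. crp5 read 1207, 945 and 554 in CC, 533, 514 and 599 at 0.292 µM and 1291, 1197 and 1317 at 2.92 µM. The log2 fold change at 0.292 µM was -0.65 ± 0.22 (adjusted p = 0.947, limma), and CC replicate 3 was as low as the exposed libraries. Without replicate 3 it was -1.03 and the gene passed (adjusted p = 0.0305, limma). crp2 read 205, 139 and 81.1 against 79.0, 62.6 and 74.1, and c7b, a complement component, 53.5, 60.7 and 48.9 against 38.3, 26.7 and 40.7. Both were lower without overlap, where 4.58% of all genes tested were, but they were picked by their low p. At 2.92 µM 6 of the 31 were DEGs and higher (0.658% of all genes tested), and between the concentrations 14 of 31 were (1.77%).

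**Figure D4:**
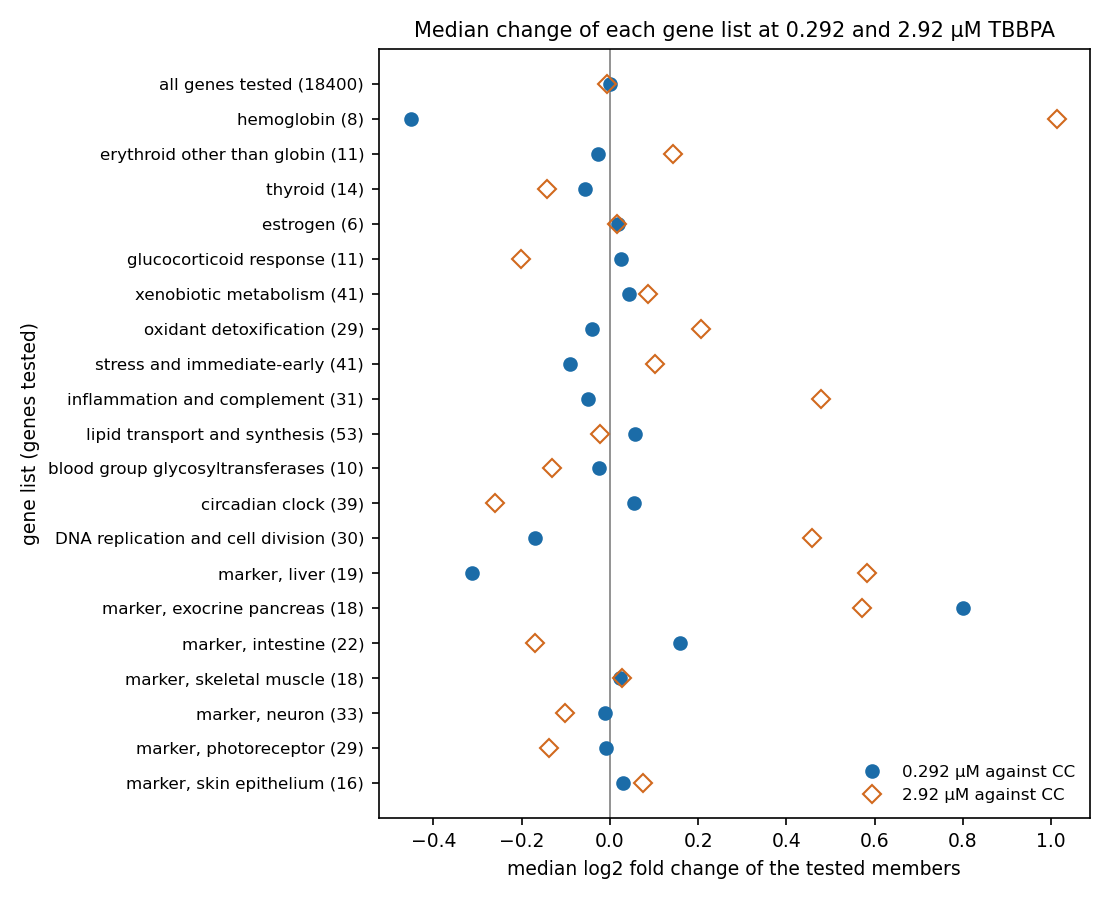
Median log2 fold change (x axis) of the tested members of 20 gene lists and of all genes tested (rows, with the number of genes), at 0.292 µM (circles) and 2.92 µM (diamonds) against the same CC libraries. The exocrine pancreas list stood at 0.80 and 0.57, hemoglobin at -0.45 and 1.01, and the circadian clock at 0.06 and -0.26.

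The thyroid, estrogen and glucocorticoid response lists gave 0 DEGs at 0.292 µM. Of 14 thyroid-related genes tested, 0 were DEGs, and the median log2 difference was -0.06. At an unadjusted p under 0.05, 1 was higher (2.4% of all genes tested) and 0 lower (2.85%). That gene, pth2, is named parathyroid hormone 2 and does not encode a thyroid protein. It read 19.0, 11.4 and 11.4 in CC and 18, 22.1 and 25 at 0.292 µM. THRB, the beta thyroid hormone receptor, read 958, 904 and 880 in CC and 1039, 997 and 893 at 0.292 µM, with a 95% interval of -0.04 to 0.22 on the log2 scale. TTR, a carrier of thyroid hormone made in the liver, read 537, 413 and 311 against 306, 379 and 335.

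Of 6 estrogen-related genes tested 0 had an unadjusted p under 0.05, and no vitellogenin gene was among the 6. ESR2 (ENSDARG00000034181), an estrogen receptor, read 26.2, 18 and 25 in CC and 30.5, 33.2 and 28.2 at 0.292 µM. The groups did not overlap, where 4.29% of all genes tested were higher without overlap. The log2 fold change was 0.41 ± 0.27 (adjusted p = 0.963, limma). Of 11 glucocorticoid response genes 0 had an unadjusted p under 0.05. klf9, a transcription factor that both glucocorticoid and thyroid hormone induce in vertebrates, read 546, 493 and 484 in CC, 586, 494 and 448 at 0.292 µM and 295, 226 and 295 at 2.92 µM. It was picked out after its values were seen. The log2 fold change was 0.00 ± 0.11 at 0.292 µM and fell by 0.90 ± 0.11 from 0.292 to 2.92 µM (adjusted p = 0.00015, limma). A low level was not particular to the highest concentration: klf9 read 315, 226 and 275 at 0.000292 µM, where it was a DEG against CC with a log2 fold change of -0.91 (adjusted p = 0.00163, limma).

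Xenobiotic, oxidant detoxification and stress genes gave 0 DEGs at 0.292 µM. Of 41 genes of xenobiotic metabolism, 2 were higher (2.4% of all genes tested) and 1 lower (2.85%) at an unadjusted p under 0.05, with 0 DEGs. sult2st1, a sulfotransferase of the family that conjugates phenols and steroids, read 65.4, 68.3 and 81.1 in CC and 90.7, 92.1 and 83.4 at 0.292 µM, and abcc2, an exporter of conjugates, 336, 214 and 297 against 418, 314 and 301. ugt5b2, a glucuronosyltransferase, was on the other side at 64.2, 61.7 and 66.6 against 50.8, 45.1 and 41.7. Of 29 oxidant detoxification genes, 9 had a fitted value above CC (49.9% of all genes tested) and 20 below it. In all 3 pairs 5 were lower (13.9% of all genes tested) and 1 higher (13.5%). At an unadjusted p under 0.05, 1 was lower (2.85%): prdx1, a peroxiredoxin, read 163, 178 and 180 in CC and 124, 147 and 145 at 0.292 µM. Of 41 stress and immediate-early genes, 14 had a fitted value above CC (49.9% of all genes tested) and 27 below it. In all 3 pairs 13 were lower (13.9% of all genes tested) and 3 higher (13.5%). At an unadjusted p under 0.05, 1 was lower (2.85%), DUSP1, a phosphatase of stress kinases. It read 637, 624 and 475 against 508, 512 and 380, a log2 fold change of -0.31 ± 0.09 (adjusted p = 0.947, limma). At an unadjusted p under 0.05, 2 of 53 genes of lipid transport and synthesis were lower (2.85% of all genes tested). 0 of 10 blood group glycosyltransferase genes had an unadjusted p under 0.05.

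Circadian clock genes, which larvae run in every tissue, had fitted values slightly above CC at 0.292 µM for 30 of 39 (49.9% of all genes tested), and 9 of 39 were higher in all 3 pairs (13.5% of all genes tested). 0 of the 39 had an unadjusted p under 0.05 or were DEGs in limma, and the median log2 fold change was 0.06. Their summed level was 47526, 45773 and 44246 in CC and 50247, 45654 and 45914 at 0.292 µM, and it was 38738, 38397 and 37012 at 2.92 µM. At 2.92 µM 24 of 39 were lower at an unadjusted p under 0.05 (9.27% of all genes tested), and 1 was a DEG and lower (0.201%). Between the concentrations the groups did not overlap for 27 genes that were lower at 2.92 µM, where 12.2% of all genes tested were. nfil3-6, a repressor of the clock output, read 1303, 1541 and 1011 in CC, 1533, 1306 and 1225 at 0.292 µM and 781, 777 and 769 at 2.92 µM, a fall by 0.80 ± 0.10 between the concentrations (adjusted p = 0.00012, limma).

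Markers of other tissues gave 0 DEGs at 0.292 µM. Of 33 neuron markers, 4 were lower (2.85% of all genes tested) and 1 higher (2.4%) at an unadjusted p under 0.05 at 0.292 µM, 15 had a fitted value above CC, and the median was -0.01. The 3 with the lowest p were neurofilament genes, the structural filaments of axons. NEFL read 357, 346 and 347 in CC and 242, 291 and 299 at 0.292 µM, a log2 fold change of -0.34 ± 0.09. nefla read 233, 242 and 245 against 149, 181 and 201, and nefma 611, 762 and 824 against 516, 613 and 699. For all 3 the adjusted p was 0.947 (limma). The first 2 did not overlap, where 4.58% of all genes tested were lower without overlap, but the 3 were picked by their low p. Photoreceptor, muscle and skin markers gave 0 genes of 29, 18 and 16 at an unadjusted p under 0.05, and intestine markers 2 of 22, both higher (2.4% of all genes tested). These 2 were ANPEP, an aminopeptidase of the gut brush border that read 38.0, 26.6 and 21.8 in CC and 40.7, 47.9 and 37.6 at 0.292 µM, and LCT, a lactase-type hydrolase that had few reads.

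The 158 genes called at 2.92 µM were then read at 0.292 µM. The 121 that rose at 2.92 µM had a median log2 fold change of 0.86 there and 0.06 at 0.292 µM. The 37 that fell had medians of -0.81 and -0.12. For 106 of the 158 the 95% interval at 0.292 µM excluded a 1.5-fold change in the direction seen at 2.92 µM, 81 of those that rose and 25 of those that fell. At an unadjusted p under 0.05, 8 changed in the same direction at 0.292 µM, 7 of the 121 that rose and 1 of the 37 that fell. Over all genes tested 2.4% were higher and 2.85% lower at that level, and the 158 were chosen with the same CC libraries. Among the 8 were gch2, an enzyme of pteridine synthesis, and ORC4, a subunit of the replication origin complex. In the opposite direction there were 2 of the 158, cdc20 and hbbe2. To avoid the shared control, the 0.292 µM libraries were also set against the mean of the 3 lower concentrations. There 69 of the 158 (43.7%) had the sign they had at 2.92 µM against CC and 89 the opposite sign, and over all 18400 genes the share was 47.4%.

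**Figure D5:**
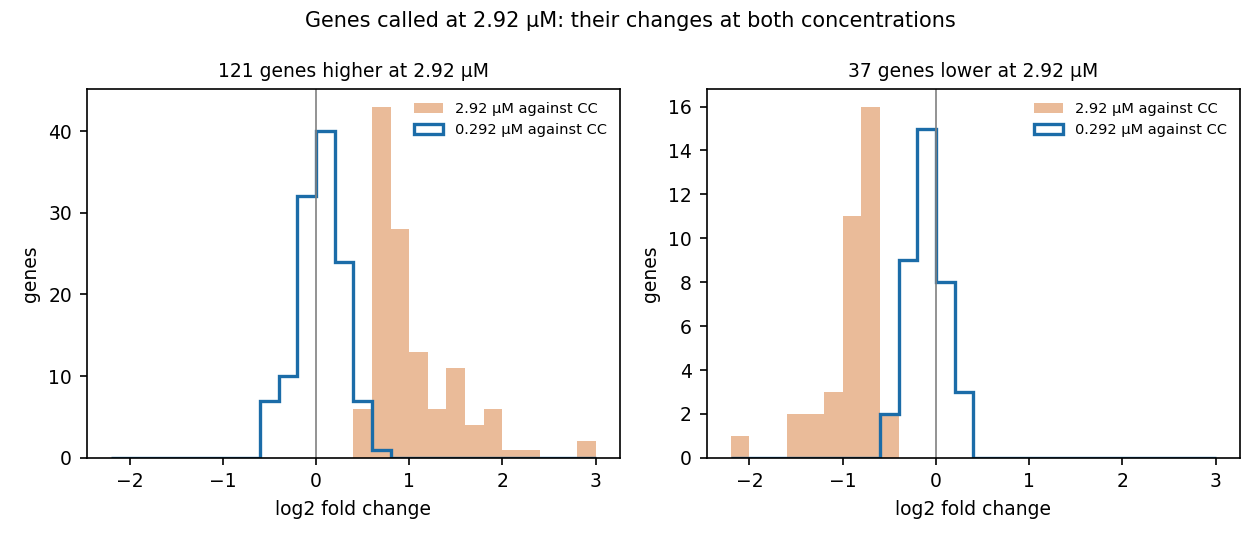
Number of genes (y axis) by log2 fold change (x axis) among the 121 genes called higher (left) and the 37 called lower (right) at 2.92 µM. Filled bars are 2.92 µM against CC, by which the genes were chosen, and open steps are 0.292 µM against the same CC libraries, where the medians were 0.06 and -0.12.

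The genes with the largest changes at 2.92 µM had low values at 0.292 µM, as in CC, and their scatter there differed from gene to gene. sult5a1, a sulfotransferase, read 15.5, 10.4 and 12.5 in CC, 14.9, 10.1 and 12.5 at 0.292 µM and 58.1, 76.8 and 208 at 2.92 µM. Its log2 fold change at 0.292 µM was -0.03, with a 95% interval of -1.05 to 0.99. irg1l, which encodes the macrophage and epidermal enzyme that makes itaconate, read 32.1, 32.3 and 40.6, then 22.7, 66.3 and 26.1, then 105, 154 and 344. si:ch211-153b23.3 read 9.51, 9.49 and 23.9, then 11.7, 41.4 and 9.39, then 56.3, 85.4 and 270. For the latter 2 genes replicate 2 was the high library at 0.292 µM, and the other 2 replicates lay within or below the CC range. The genes with the largest falls were weakly expressed. vwa11, for example, read 17.8, 21.8 and 45.8 in CC, 20.3, 23.9 and 19.8 at 0.292 µM and 4.69, 10.7 and 10.8 at 2.92 µM.

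Set directly against 0.292 µM, the libraries at 2.92 µM gave 468 DEGs (2.54%), 325 higher (1.77%) and 143 lower (0.777%), more than the 158 against CC. The larger count rested in part on 1 library. Without 0.292 µM replicate 1 there were 162 DEGs, against 403 and 397 without 0.292 µM replicate 2 or 3. Without replicate 1 as a pair there were 118. Without replicate 3 there were 280, without the replicate block 311, and with DESeq2 310. Replicate 1 at 0.292 µM was also the farthest from 2.92 µM on the first principal component, at 19.0. Replicate 1 at 0.00292 and 0.0292 µM lay near it, at 17.2 and 16.5. Against the mean of the 3 lower concentrations, 0.292 µM gave 0 DEGs, with 996 genes at an unadjusted p under 0.05 (5.41%) and a lowest adjusted p of 0.233 in limma. edgeR called 0 with 1062, and DESeq2, over all 26639 genes, 0 with 464. In that comparison 8 of 16 skin epithelium markers were higher at an unadjusted p under 0.05 (2.56% of all genes tested), with a median of 0.19, while against CC the same list gave 0 and a median of 0.03. Of the 3 lower concentrations, 0.000292 µM had the lowest summed skin level, with a mean of 89260 against 113529 at 0.00292 µM and 110456 at 0.0292 µM, where CC had 116328 and 0.292 µM 119557.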

How the data were processed

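RNA was read by poly(A)-selected, stranded RNA-seq. Per the methods of the study and the submitters' processing notes, the authors trimmed reads with cutadapt, aligned and counted them per gene with STAR on GRCz11, and deposited counts divided by DESeq2 size factors, a normalized signal. Versions are not given in the sources used here. Whole reads were recovered from these values for 100% of entries (tolerance 0.01). Read depth was 7865327 to 11478099 per library. Gene names came from a table of gene identifiers and symbols and the zebrafish symbols of the study's supplement, and 1974 of 26639 identifiers stayed unnamed. Symbols in capitals are spelled as in the table.

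Genes with a mean of at least 10 were tested with limma 3.58.1 (trend) on log2(value + 1), with all 18 TBBPA libraries and the replicate number as a block. Fold changes are on that scale, which understates low genes. Same-numbered CC and 0.292 µM libraries deviated together (r = 0.166, 0.151 and 0.238 over genes), and the study used a different clutch for each replicate. Different libraries of a group differed beyond read sampling. The genes of 20 lists and the named genes (12 nearest in each direction, 5 in each direction with the largest change at 2.92 µM, and the 3 with the lowest p in each list) followed fixed rules, but the groups and lists were chosen with earlier results of these data known. edgeR 4.0.16 and DESeq2 1.42.0 were run on the recovered reads, edgeR for the 18400 genes tested and DESeq2 for all 26639. Alternatives were the pseudocount (0.5, 10), the filter (none, 50), TMM or library total scaling, limma's treat, no fold minimum, only the groups compared, no block, and leaving out replicates or libraries. The test scripts were tested on simulated data. p-values and SEs measure the spread between pools over all 18 TBBPA libraries, except where a fit of fewer libraries is named. Genes of a list come from the same pools and are not replicates. Their counts beside the share over all genes tested are descriptions. The bisphenol A table was not used here.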

Additional observations from a re-analysis of the deposited data

How the results depend on the processing

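The count of 0 DEGs at 0.292 µM held under 20 of 22 alternatives. The exceptions were the fit of only the groups compared, with 13 DEGs of 18400 genes, and the fit without replicate 3, with 1. Of the 13, 10 were among the 18 exocrine pancreas markers. Leaving out replicates or libraries gave 0 to 1. Against the 3 lower concentrations the count was 0 throughout. At 2.92 µM against CC the 158 DEGs became 69 without the replicate block, 89 with DESeq2, 0 with limma's treat at 1.5-fold and 543 with no fold minimum, and ranged from 19 to 225 when replicates or libraries were left out. Between 2.92 and 0.292 µM the 468 became 311, 310, 0 and 1646 under the same settings and ranged from 118 to 530. limma's treat tests against 1.5-fold itself and is stricter, with 75 and 143 genes at an unadjusted p under 0.05 and lowest adjusted p of 0.767 and 0.513. The cause of these shifts was not tested.

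The 19 of 24 genes with the same sign at 2.92 µM became 4 of the 6 left at a mean of at least 50, and 16 to 19 when libraries were left out. The median of the liver list reversed to 0.074 without replicate 1 and ranged from -0.54 to 0.074. That of the clock list ranged from 0.019 to 0.082. The replicate block changed no call at 0.292 µM. Of 79 genes named by rule at 0.292 µM, 4 passed in the fit of only the groups compared and 1, crp5, without replicate 3. prss1 and amy2a, named outside the rules, also passed in the fit of only the groups compared. Leaving out replicates or libraries also reversed the sign of 5 genes near 0 at 0.292 µM: GREB1 ranged from -0.60 to 0.026, esrrb from -0.28 to 0.031, TAT from -0.52 to 0.0047, ST3GAL3 (ENSDARG00000015374) from -0.19 to 0.034 and casq1a from -0.055 to 0.24. The 10 genes named at 2.92 µM each lost their call in 2 to 15 alternatives.

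At this depth and n = 3, changes under about 1.23-fold lay within the 95% interval of the median gene at 0.292 µM, and genes with few reads had wider intervals. The groups of 3 are too small for a test of single outlying samples. CC and 0.292 µM replicate 1 each moved several results, and those values stand beside them.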
